A study of Mus musculus with 13 samples.

Results

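Transcript changes between the first 2.0 h and the next 2.0 h after the return of serum were measured in C2C12, a mouse myoblast line (precursors of skeletal muscle fibres). The middle window held the 4 arrays at 2.5, 3.0, 3.5 and 4.0 h, the early window the 4 arrays at 0.5, 1.0, 1.5 and 2.0 h, and these were 8 of the 13 arrays analysed here. Each array was placed in its window by its labelled time. All cells had been grown to near confluence, kept for 24 h in medium with 0.2% serum and returned to medium with serum, the only agent that was changed. The question of the study was which transcripts oscillate, as segmentation genes do in the embryo, and it profiled total RNA on 1 Affymetrix mouse expression array per time point.

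Serum returns growth factors to cells that have left the cycle. The response runs in waves: immediate-early genes, whose induction needs no new protein, encode transcription factors and feedback inhibitors and are shut off quickly, while delayed genes follow and supply ribosomes, amino acids, cyclins and DNA replication. In myoblasts, serum growth factors favour division over fusion into muscle fibres. Serum response factor binds the CArG box in many immediate-early promoters, sterol response element binding proteins bind the SRE of cholesterol genes, and the CHR element recurs in promoters of mitotic genes.

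Values are log2 of the deposited ratio, in which each probe set is relative to its own reference value. A value of 0 is a ratio of 1, and no value gives the level of one gene against another. The labelled cell type could therefore not be checked by the level of its markers. Each gene is given as the mean over the probe sets that name only that gene. Each time point had 1 array from a flask kept in parallel, with no replicate numbers, so the 4 arrays of a window served as its samples. The p-values measure the spread within windows, which holds change over time as well as technical variation, and say nothing of variation between repeated cultures. The standard error of the window difference had a median of 0.071 over 18193 genes. A gene was called at an adjusted p under 0.05 (limma, Benjamini-Hochberg over all genes).

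Array controls were compared over the same 8 arrays. The median of all genes was between -0.021 and -0.001 in the early window and between -0.051 (at 2.5 h) and -0.017 in the middle window, a difference of -0.02 (exact permutation p = 0.0857, two-sided, adjusted p = 0.44 over 7 measures). The spiked-in hybridisation controls read 0.327, -0.081, 0.016 and 0.243 on the early arrays and -0.036, 0.093, -0.225 and -0.353 on the middle arrays (exact permutation p = 0.143). The 3′ minus 5′ difference of Actb, a sign of RNA integrity, had the same mean of -0.037 in both windows. Of the 7 measures none reached an exact p under 0.05, where 0.0286 is the smallest that 4 arrays against 4 allow. No label dates the arrays, and whether the arrays up to 2.0 h and those from 2.5 h were handled apart was not tested.

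Between the windows, 4033 of 18193 genes (22.2%) changed, 1409 of them higher (7.74%) and 2624 lower (14.4%) in the middle window. The median change of all genes was -9e-04. Most changes were small: 9 higher genes and 46 lower genes, or 0.0495% and 0.253% of all, also differed by 1 or more on the log2 scale. Values of the 2 windows did not overlap in 4191 genes (23.0%), with the middle window higher in 1460 (8.03%) and lower in 2731 (15.0%). On single probe sets, 2862 of 45037 (6.35%) were higher and 5253 (11.7%) lower. The excess of falls depended in part on scaling: higher genes made up 34.9% of the calls, 43.3% after quantile normalization and 43.8% with each array centred on its median.

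Whether the change came as a step at 2.0 to 2.5 h or as a slope was described for each gene over the 8 arrays. A step between 2.0 and 2.5 h and a straight line, each with 2 parameters, were compared by the variance they left. A gene was stepwise where the step left at most 0.5 of what the line left, gradual where the line left at most 0.5 of what the step left, and undecided between these. It was neither where the better one explained under 70% of the variance. Of the 4033 called genes, 563 (14%) were stepwise, 785 (19.5%) gradual, 1668 (41.4%) undecided and 1017 (25.2%) neither. Quantile normalization turned the order of the first 2 classes, with 652 of its 3659 called genes stepwise and 443 gradual. The classes of called genes are a description, since a test of window means favours genes that differ at the boundary.

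The mix of shapes, given here as a description, was not the same in higher and lower genes. Among the 1409 higher genes, 144 (10.2%) were stepwise and 347 (24.6%) gradual, and among the 2624 lower genes, 419 (16.0%) were stepwise and 438 (16.7%) gradual. The interval from 2.0 to 2.5 h held the largest of the 7 changes between neighbouring arrays in 34.9% of higher genes and 59.6% of lower genes, against 29.8% of all 18193 genes. As a share of the window difference, where a pure step gives 100% and a straight line 25%, the change at 2.0 to 2.5 h had a median of 51.78% in higher and 72.93% in lower genes. Centring each array on its median, which removes the low median at 2.5 h, brought the shares with the largest change there to 41.2% of 1801 higher and 52.2% of 2310 lower genes. Stepwise shares were then 12.4% and 12.5%, so that the difference between higher and lower genes in this class did not hold under centring.

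Selecting genes by a straight line over the 8 arrays, with no reference to the boundary, also gave unequal mixes in rising and falling genes. Such a test favours genes that a line fits, so the excess of gradual over stepwise genes in it is a description. On values without centring this test called 3678 genes (20.2%), 1440 rising (7.92%) and 2238 falling (12.3%), and 2955 genes were called by both tests. Among rising genes, 71 (4.93%) were stepwise, 563 (39.1%) were gradual and 16.4% had their largest change at 2.0 to 2.5 h. Among falling genes, 216 (9.65%) were stepwise, 493 (22.0%) were gradual and 47.4% had their largest change there. With each array centred on its median, an alternative added after seeing the data, 107 of 1724 rising genes (6.21%) and 163 of 2118 falling genes (7.70%) were stepwise, and 21.2% and 40.2% had their largest change there. A jump at the boundary beside a common slope was called in 0 genes by limma after adjustment (1468, or 8.07%, at an unadjusted p under 0.05, with 438, or 2.41%, upward and 1030, or 5.66%, downward). A slope beside the jump was likewise called in 0 genes (2146, or 11.8%, unadjusted), and the median standard error of the jump was 0.138. For a single gene, 8 arrays thus did not separate a step from a slope.

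**Figure D1:**
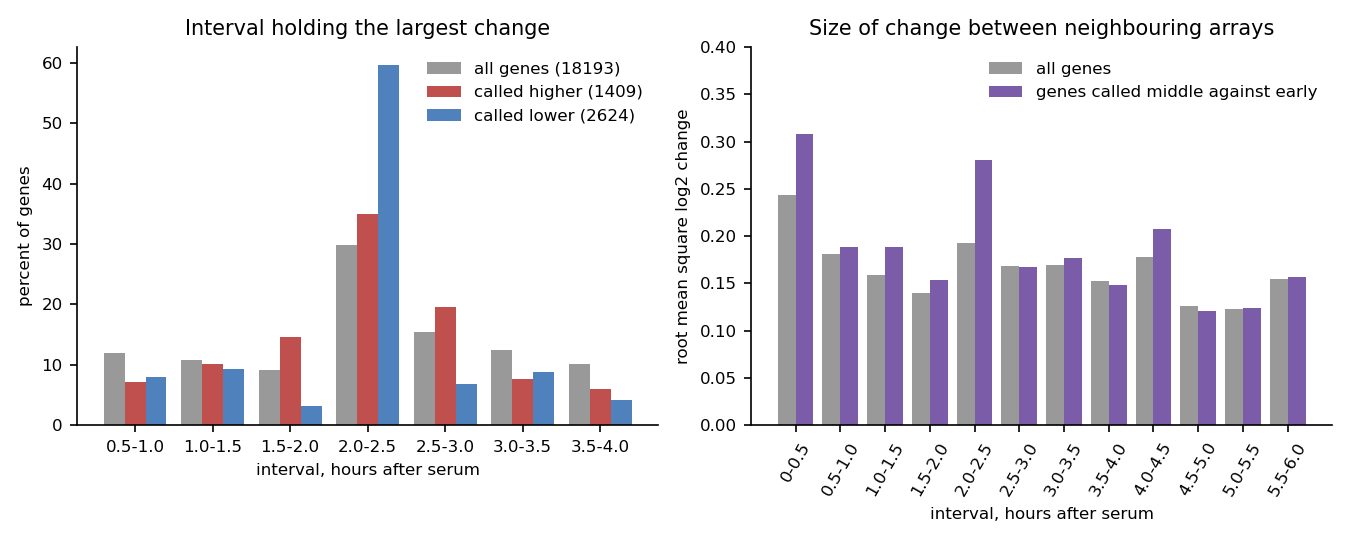
Left, the percent of genes (y axis) whose largest change between neighbouring arrays fell in each 0.5 h interval (x axis), for all 18193 genes, 1409 called higher and 2624 called lower. Right, the root mean square log2 change between neighbouring arrays over all genes and over called genes. The interval from 2.0 to 2.5 h held the largest change in 59.6% of genes called lower.

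Neighbouring arrays differed more across the boundary than within the windows. The root mean square change over all genes was 0.193 from 2.0 to 2.5 h, against 0.14 to 0.181 for the other intervals between 0.5 and 4.0 h. It was 0.178 from 4.0 to 4.5 h, the border of the next window, and 0.243 over the first 0.5 h in serum. Gene values of the 2.0 and 2.5 h arrays correlated at 0.501, a description over genes, and those of the 4.0 and 4.5 h arrays at 0.51, where the other neighbouring pairs had 0.559 to 0.764.

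**Figure D2:**
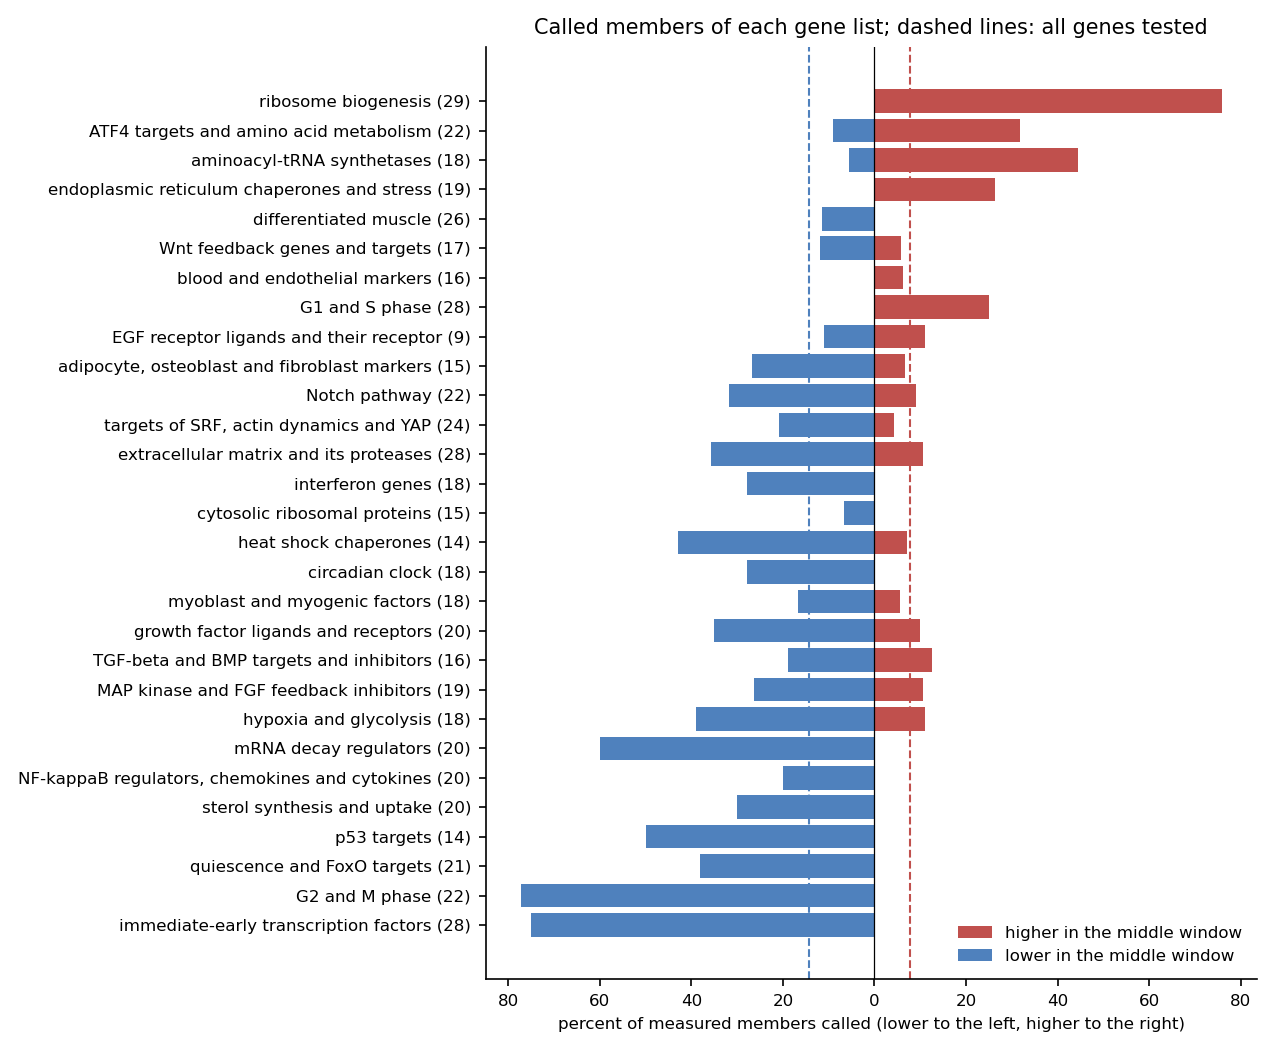
Percent of measured members of 29 gene lists (number measured in brackets) called lower (bars to the left) or higher (bars to the right) in the middle window. Dashed lines mark all genes tested, 14.4% lower and 7.74% higher. Ribosome biogenesis (75.9% higher) stands far to the right, and G2 and M phase (77.3% lower) and immediate-early factors (75.0% lower) far to the left.

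Most immediate-early transcription factors were lower in the middle window. Of 28 measured, 21 (75.0%) were called lower and 0 higher, where 14.4% of all genes were called lower, and the list median was -0.73. Over the arrays the list median stood at 1.005, 1.175, 0.868 and 0.418 from 0.5 to 2.0 h and at 0.195, 0.188, 0 and -0.102 from 2.5 to 4.0 h, so most of the decline had passed by 2.0 h. The called members were gradual in 9 cases, undecided in 9, neither in 3 and stepwise in 0. In the contrast of 1.5 and 2.0 h with 2.5 and 3.0 h, the arrays nearest the boundary, 9 were called lower. That contrast, which has fewer arrays, called 449 of all 18193 genes lower and 100 higher.

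Nr4a1, an orphan nuclear receptor, had the largest fall of all called genes. Its log2 ratios were 4.19, 4.18, 3.11 and 1.88 from 0.5 to 2.0 h and 0.56, 0.35, 0.18 and 0 from 2.5 to 4.0 h. All early values lay above all middle values, and the difference of -3.07 ± 0.37 (SE, adjusted p = 0.000231) was an 8.37-fold decrease. Atf3, a stress-induced repressor of the CREB family, read 3.22, 3.05, 2.23 and 1.16, then -0.17, -0.25, -0.17 and -0.11. It had reached its middle level at 2.5 h and fell by 2.59 ± 0.31 (adjusted p = 0.000232). Both were undecided, with 42.8% and 51.2% of the difference at 2.0 to 2.5 h.

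Of the AP-1 subunits and the zinc finger factors of the Egr family, Fosb, Fos, Egr2 and Egr1 had their largest change from 1.0 to 1.5 h. Others were later: Junb held 1.55 to 1.81 up to 2.0 h and had its largest change from 3.0 to 3.5 h, and Fosl2 and Egr3 had 60.9% and 50.8% of their difference at 2.0 to 2.5 h. Fosl1 climbed to 1.1 at 2.0 h and was not called (adjusted p = 0.834). Fosb read 3.47, 3.21, 1.55 and 1.03, then 0.29, -0.01, 0.09 and 0, and differed by -2.22 ± 0.40 (adjusted p = 0.00189). Fos read 4.25, 3.00, 0.75 and 0, then -0.06, 0.03, -0.2 and -0.3, so it was back at its middle level by 2.0 h and its windows overlapped. Its difference of -2.13 ± 0.64 (adjusted p = 0.0288) lost the call when the 0.5, 1.0, 3.5 or 4.0 h array was left out, at adjusted p values of 0.0538 to 0.0885. Egr2 read 2.71, 2.88, 1.53 and 1.01, then 0.25, 0.13, -0.07 and -0.07, a difference of -1.97 ± 0.32 (adjusted p = 0.00109). Egr1 read 2.48, 1.86, 1.01 and 0.33, then 0, -0.07, 0 and -0.04, a difference of -1.45 ± 0.31 (adjusted p = 0.00533). Fosb, Egr2 and Egr1 were gradual, and all of their early values exceeded their middle values.

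Promoter sequences are shown for the called members of this list that hold a CArG box in the 250 bases before a start site (RefSeq, build GRCm38.p6). A promoter entry was matched for 14368 of the 18193 genes and for 21 of the 28 list members. The CArG box, searched on both strands, was found in 2 of these 21 (9.52%) and in 1.62% of all 27025 genes with a promoter. Egr2, with several annotated starts, is shown on the forward strand at chr10:67537316-67537565, and Zfp36, an RNA-binding protein that promotes decay of unstable mRNAs, on the reverse strand at chr7:28379229-28379478. Capitals mark the box, whose first base lies at -72 and -58 from the start site.
Egr2: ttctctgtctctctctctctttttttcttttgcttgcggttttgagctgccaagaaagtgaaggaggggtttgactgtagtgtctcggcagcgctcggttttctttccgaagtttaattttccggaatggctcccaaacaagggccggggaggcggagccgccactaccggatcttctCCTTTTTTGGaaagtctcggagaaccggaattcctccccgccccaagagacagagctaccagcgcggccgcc
Zfp36: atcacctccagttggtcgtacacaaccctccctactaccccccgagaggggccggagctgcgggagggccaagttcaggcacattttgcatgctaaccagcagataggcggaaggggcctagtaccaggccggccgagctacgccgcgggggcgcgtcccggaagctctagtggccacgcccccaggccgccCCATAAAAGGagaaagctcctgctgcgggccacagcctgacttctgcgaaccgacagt
Zfp36 read 2.15, 1.84, 0.93 and 0.28, then 0.24, 0.21, 0 and -0.21, a gradual course with 3.5% of the difference at 2.0 to 2.5 h. It fell by 1.24 ± 0.29 (adjusted p = 0.00868), with no overlap of the windows.

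**Figure D3:**
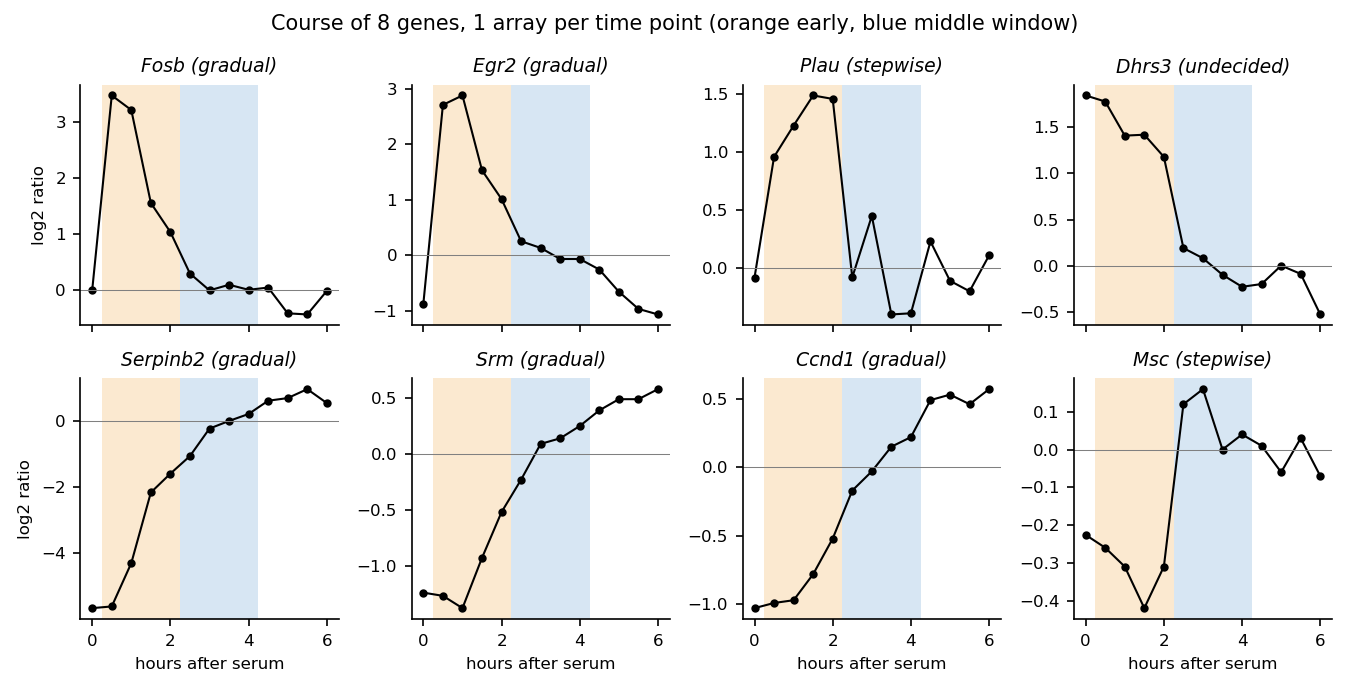
Log2 ratio (y axis) against hours after serum (x axis) for 8 genes, 1 array per point, with the early window shaded orange and the middle window blue. The upper row shows falls and the lower row rises. Plau and Msc change level between 2.0 and 2.5 h, and Dhrs3 drops there on top of a decline. Fosb and Egr2 fall mainly up to 2.5 h, while Serpinb2, Srm and Ccnd1 rise in both windows.

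In the list of mRNA decay regulators, which destabilise short-lived transcripts, 12 of 20 were lower (60%, against 14.4% of all genes) and 0 higher (median -0.21). Without the 4.0 h array 7 were lower, and in the contrast nearest the boundary 1 was, against 449 of all 18193 genes. Noct, a circadian phosphatase of the deadenylase family, read 0.9, 1.84, 1.81 and 1.47, then 0.51, 0.29, -0.05 and -0.17. It peaked from 1.0 to 1.5 h and fell by 1.36 ± 0.19 (adjusted p = 0.000396), with 70.3% of the difference at 2.0 to 2.5 h. Btg2, an antiproliferative partner of the deadenylase complex, began at 2.44 and was down to 0.33 by 2.0 h, and only 11.2% of its difference of -1.29 ± 0.31 fell at the boundary. Zfp36 and Btg2 stand in the immediate-early list too.

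Among feedback inhibitors of MAP kinase and FGF signalling, 5 of 19 were lower, 2 higher and 12 not called (median -0.17). These were 26.3% lower and 10.5% higher, against 14.4% and 7.74% of all genes. Errfi1, which blocks EGF receptor signalling, read 0.58, 1.36, 1.16 and 0.92, then 0.34, 0.29, -0.02 and -0.04. Its windows did not overlap (-0.86 ± 0.15, adjusted p = 0.00133). The phosphatase Dusp2 peaked at 1.54 at 1.5 h and was at most 0.24 in the middle window (-0.79 ± 0.18, adjusted p = 0.00619). Rasa1, a GTPase activator that restrains Ras, was higher by 0.54 ± 0.13 (adjusted p = 0.0101), although it had already reached -0.05 at 2.0 h against -0.08 to 0.21 later.

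Most ribosome biogenesis genes were higher in the middle window. Of 29 measured, 22 (75.9%) were called higher, where 7.74% of all genes were, and 0 lower, with a list median of 0.54. The list median read -0.875, -0.636, -0.427 and -0.139 from 0.5 to 2.0 h and -0.146, 0.045, 0.007 and 0 from 2.5 to 4.0 h. The climb thus ran through the early window and paused across the boundary on values without centring. The median of all genes moved there from -0.001 to -0.051. Of the 22 called members, 14 were gradual, 6 undecided, 2 neither and 0 stepwise. Of the same 22, 1 had its largest change at 2.0 to 2.5 h, as did 34.9% of all genes called higher. In the contrast nearest the boundary 0 of the 29 were called by limma, where 100 of all 18193 genes were called higher.

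Nop56, a core protein of the box C/D particles that guide methylation of ribosomal RNA, read -1.24, -0.97, -0.67 and -0.35, then -0.21, 0.04, 0.2 and 0.12. It was higher by 0.85 ± 0.15 (adjusted p = 0.00135), or 1.804-fold, with no overlap. Dkc1, the pseudouridine synthase of the box H/ACA particles, went from -1.24 at 0.5 h to -0.5 at 2.0 h, -0.55 at 2.5 h and 0.11 at 4.0 h (0.83 ± 0.15, adjusted p = 0.00189). Its change across the boundary was -0.05, or -6.2% of the difference, where the median of all genes moved from -0.001 to -0.051. Bysl, needed for the small ribosomal subunit, rose by 0.69 ± 0.14 (adjusted p = 0.00385), of which 5.7% fell at 2.0 to 2.5 h. By contrast, cytosolic ribosomal proteins themselves had 1 of 15 called (6.67%, against 22.2% of all genes) and a list median of -0.08. The called gene was Rps3 (-0.17 ± 0.05, adjusted p = 0.0385). The Rps3 call was lost without any one of 7 of the 8 arrays (adjusted p from 0.0502 to 0.103), and after centring (0.061).

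Of 18 aminoacyl-tRNA synthetases, which charge tRNAs with amino acids, 8 (44.4%, against 7.74% of all genes) were higher, 1, Qars, lower and 9 not called (median 0.24), and 7 of the 9 were gradual. Nars, which charges the asparagine tRNA, read -0.79, -0.46, -0.32 and -0.12, then -0.06, 0.02, 0.07 and 0.07 (0.45 ± 0.11, adjusted p = 0.0101), without overlap. Iars (0.43 ± 0.13) and Tars (0.42 ± 0.12), for isoleucine and threonine, were also called, and lost the call without the 0.5, 1.0 or 3.0 h array (adjusted p from 0.0543 to 0.0794), Iars also without the 3.5 or 4.0 h array (0.0703 and 0.06). The count of higher synthetases was 2 without the 0.5 or the 1.0 h array and 3 without the 3.0, 3.5 or 4.0 h array. It was 0 in the contrast nearest the boundary, against 100 of all 18193 genes.

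In the list of ATF4 targets and amino acid metabolism, 7 of 22 were higher (31.8%, against 7.74% of all genes), 2 lower and 13 not called (median 0.25), and 12 were higher without the 2.0 h array. The lower count ran from 0 to 5 when single arrays were left out, with 5 without the 0.5 h array. In the contrast nearest the boundary 0 were higher, against 100 of all 18193 genes. Asns, asparagine synthetase, read -1.6, -1.28, -0.82 and -0.48, then -0.33, -0.09, 0.01 and 0.03, with no overlap and 16.1% of the difference at 2.0 to 2.5 h (0.95 ± 0.18, adjusted p = 0.00231). Mthfd2, a mitochondrial enzyme of folate-dependent carbon transfer, rose by 0.93 ± 0.21 (adjusted p = 0.00734), from -1.79 at 0.5 h to -0.38 at 2.0 h and -0.36 at 2.5 h. Ddit3, a stress-induced transcription factor, went the other way, with a peak of 1.5 at 1.5 h (-0.77 ± 0.22, adjusted p = 0.0227). The Ddit3 call was lost without any one of 5 arrays (adjusted p from 0.0523 to 0.0666) and after quantile normalization (0.124), and its 2 probe sets were at -1.25 and -0.29.

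Chaperones and stress genes of the endoplasmic reticulum had 5 of 19 higher (26.3%, against 7.74% of all genes) and 0 lower (median 0.19). Creld2, a secreted chaperone-like protein, read -1.36, -1.11, -0.72 and -0.32, then -0.34, -0.15, 0.02 and 0 (0.76 ± 0.17, adjusted p = 0.00544). Manf, a stress-induced secreted factor, rose by 0.45 ± 0.12 (adjusted p = 0.0135). The windows of both overlapped by the step back at 2.5 h, which was -1.7% and -12.1% of the difference. Over the same interval the median of all genes moved from -0.001 to -0.051. Sdf2l1 (0.46 ± 0.15, adjusted p = 0.0422) lost its call without any one of 5 arrays (adjusted p from 0.0541 to 0.12).

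**Figure D4:**
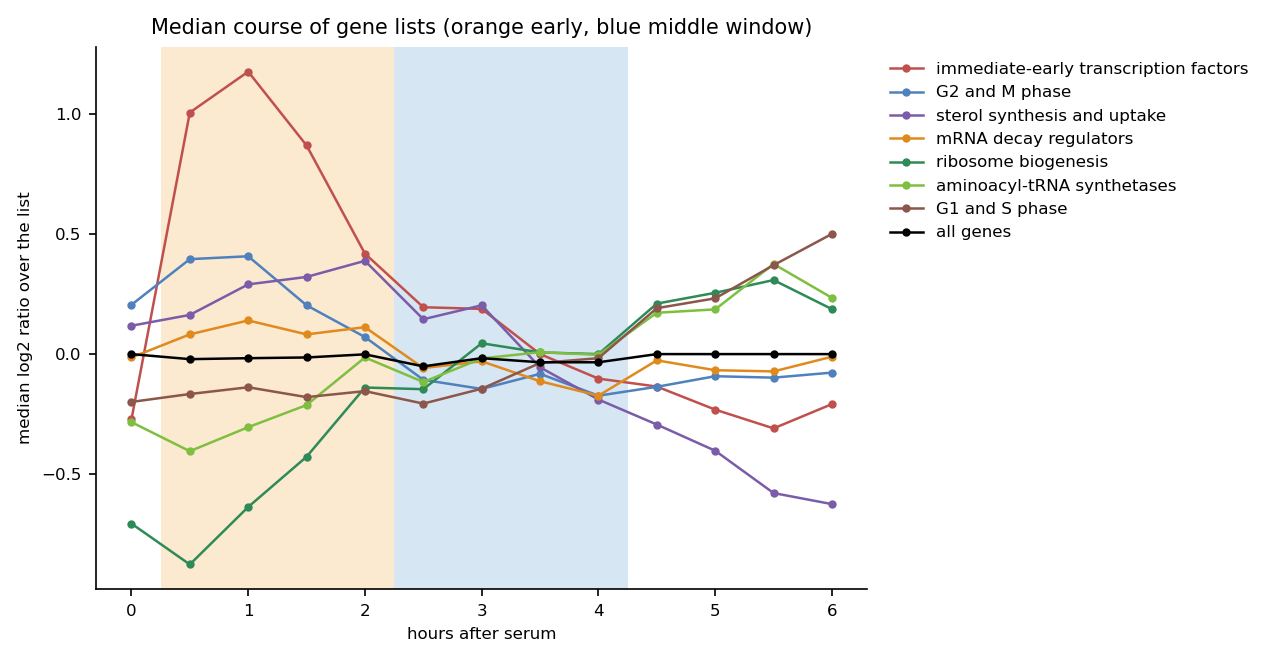
Median log2 ratio (y axis) of 7 gene lists and of all genes at each hour after serum (x axis), with the early window shaded orange and the middle window blue. Immediate-early factors decline from a median of 1.175 at 1.0 h, and ribosome biogenesis climbs from -0.875 at 0.5 h to 0.045 at 3.0 h. Sterol synthesis and uptake falls from 0.388 at 2.0 h to -0.189 at 4.0 h.

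Most genes of G2 and mitosis were lower in the middle window. Of 22 measured, 17 (77.3%) were called lower, where 14.4% of all genes were, and 0 higher, with a median of -0.40. The list median read 0.395, 0.407, 0.203 and 0.071 in the early window and -0.107, -0.145, -0.082 and -0.173 in the middle window, against 0.205 at 0 h. Of the 17 called members, 6 were gradual, 8 undecided, 3 neither and 0 stepwise. Of the same 17, 9 had their largest change at 2.0 to 2.5 h, as did 59.6% of all genes called lower. In the contrast nearest the boundary 2 were called lower, against 449 of all 18193 genes. In RNA from whole cultures, fewer cells in a state and less RNA per cell cannot be told apart.

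Cenpe, a kinetochore motor, read 0.54, 0.85, 0.49 and 0.16, then -0.45, -0.34, -0.49 and -0.31. The windows were apart by more than their spread (-0.91 ± 0.11, adjusted p = 0.000232), with 67.6% of the difference at 2.0 to 2.5 h. Aurkb, the kinase of the chromosomal passenger complex, read 0.41, 0.58, 0.14 and -0.02, then -0.7, -0.39, -0.47 and -0.55 (-0.81 ± 0.15, adjusted p = 0.00199). Mki67, the proliferation marker Ki-67, read 0.51, 0.81, 0.42 and 0.17, then 0, -0.49, -0.2 and -0.53 (-0.78 ± 0.13, adjusted p = 0.00109). The 3 genes share a peak at 1.0 h and a decline that began before the boundary.

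A CHR element, TTTGAA on either strand, was found in 6 of 18 promoters of this list (33.3%), in 18.3% of all 27025 genes with a promoter and in 14.1% of the genes tested. Called members with a match were Mki67, Kif11, Ccnb2, Cdc20 and Cdk1. The 2 of them with the largest fall are shown, with the element in capitals. Mki67 is on the reverse strand at chr7:135716380-135716629, with matches at -116 and -98. Kif11, a spindle motor that read 0.37, 0.55, 0.36 and 0.25, then -0.1, -0.19, -0.19 and -0.23 (-0.56 ± 0.07, adjusted p = 0.00024), is on the forward strand at chr19:37376132-37376381. Its match at -19 reads on the opposite strand.
Mki67: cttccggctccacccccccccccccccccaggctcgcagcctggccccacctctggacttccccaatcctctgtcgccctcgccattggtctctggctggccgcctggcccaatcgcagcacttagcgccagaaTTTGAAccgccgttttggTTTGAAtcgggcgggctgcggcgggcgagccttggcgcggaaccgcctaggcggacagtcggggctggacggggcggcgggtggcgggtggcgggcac
Kif11: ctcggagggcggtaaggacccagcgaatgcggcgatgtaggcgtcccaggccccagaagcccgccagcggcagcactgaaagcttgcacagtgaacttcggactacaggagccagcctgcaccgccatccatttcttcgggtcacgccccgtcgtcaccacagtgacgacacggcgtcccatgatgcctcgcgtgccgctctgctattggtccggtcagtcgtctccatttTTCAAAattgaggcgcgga

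Of 28 measured genes of G1 and S phase, 7 were higher (25.0%, against 7.74% of all genes) and 0 lower, and the list median was 0.03. Without the 1.0 h array 4 were higher, and in the contrast nearest the boundary 2 were, against 100 of all 18193 genes. Ccnd1, cyclin D1, which carries growth factor signals into the cell cycle, read -0.99, -0.97, -0.78 and -0.52, then -0.17, -0.03, 0.15 and 0.22. It climbed at every step from 1.0 h, gradually, with no overlap (0.86 ± 0.10, adjusted p = 0.00022). Dctd, a deaminase on the way to thymidine nucleotides, was flat at -0.98, -0.91, -0.96 and -1 and then read -0.41, -0.06, 0 and 0.19 (0.89 ± 0.12, adjusted p = 0.00032), with 66.3% of the difference at 2.0 to 2.5 h. Ung, which removes uracil from DNA, was also flat to 2.0 h and rose from -0.74 at 2.5 h to 0.28 at 4.0 h (0.75 ± 0.20, adjusted p = 0.0162, or 0.0534 without the 4.0 h array). The minichromosome maintenance genes Mcm2 to Mcm7 lay between -0.16 and 0.01 and were not called.

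Of the genes of quiescence and FoxO activity, 8 of 21 were called lower (38.1%, against 14.4% of all genes), 0 higher and 13 not called (median -0.34), and 13 were lower and 2 higher without the 2.0 h array. Sesn3, a sestrin that restrains growth signalling, read 1.28, 0.94, 0.83 and 0.66, then 0.06, -0.39, -0.43 and -0.53. It declined in both windows without overlap (-1.25 ± 0.13, adjusted p = 0.000136). Cited2, a transcriptional coregulator, went from 1.11 at 0.5 h to 0.46 at 2.0 h and from 0.06 to -0.26 over the middle window (-0.88 ± 0.12, adjusted p = 0.000324). Sesn1 differed by -1.15 ± 0.23 (adjusted p = 0.00283), but its 4 probe sets ranged from -1.96 to 0.15, and with 1 probe set per gene it stood at 0.145 (adjusted p = 0.24).

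Among p53 targets 7 of 14 were lower (50.0%, against 14.4% of all genes) and 0 higher (median -0.28). The largest fall was that of Btg2 (-1.29 ± 0.31), which also stands in the immediate-early and mRNA decay lists. Pmaip1, the cell death factor Noxa, read 0.35, 0.37, 0.22 and 0.23, then -0.41, -0.4, -0.43 and -0.69. Values were level within the early window and again from 2.5 to 3.5 h, and 82.8% of the difference (-0.78 ± 0.07, adjusted p = 7.58e-05) fell at 2.0 to 2.5 h. Plk3, a stress-response kinase, read 0.16, 0.93, 1.32 and 1.13, then 0.33, 0.08, 0.02 and -0.14 (-0.81 ± 0.18, adjusted p = 0.00646), with overlap of the 0.5 h array alone.

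Of the circadian clock genes, 5 of 18 were lower (27.8%, against 14.4% of all genes) and 0 higher (median -0.11). Dbp, a PAR bZIP activator, read 0.98, 0.82, 0.45 and 0.09, then -0.4, -0.44, -0.4 and -0.38. It declined to 2.5 h and stayed level (-0.99 ± 0.15, adjusted p = 0.000544). Nfil3, the repressor that binds the same sites, read 0.56, 1.19, 1.15 and 1.06, then 0.24, 0.25, -0.07 and -0.18, with 88.8% of its difference (-0.93 ± 0.14, adjusted p = 0.000548) at 2.0 to 2.5 h. Per1, a repressor of the clock that serum induces, read 0.79, 0.77, 0.68 and 0.19, then -0.13, -0.4, 0 and -0.07 (-0.75 ± 0.13, adjusted p = 0.00116). The stepwise member was Nr1d2, a heme-binding nuclear receptor, at 0.27 to 0.5 in the early window and -0.41 to -0.29 in the middle window (-0.69 ± 0.07, adjusted p = 0.000113); it was singled out after its values were seen.

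Of 20 measured genes of sterol synthesis and uptake, 6 (30.0%, against 14.4% of all genes) were lower, 0 higher and 14 not called (median -0.27). After quantile normalization 3 were lower, and in the contrast nearest the boundary 0 were, against 449 of all 18193 genes. The list median read 0.163, 0.29, 0.321 and 0.388, then 0.145, 0.203, -0.055 and -0.189, so that it dropped both at the boundary and again from 3.0 to 3.5 h. Hmgcs1, which makes HMG-CoA for cholesterol synthesis, read 0.73, 0.9, 0.87 and 0.77, then 0.38, 0.33, -0.06 and -0.48 (-0.77 ± 0.15, adjusted p = 0.0029). Its largest change came from 3.5 to 4.0 h, as did that of Stard4, a cholesterol carrier (-0.63 ± 0.17, adjusted p = 0.0163, or 0.057 after quantile normalization). Insig1, the sterol-sensing retention protein, had -0.74 ± 0.25 (adjusted p = 0.0447), a call lost without any one of 5 arrays (adjusted p from 0.0749 to 0.135), after quantile normalization (0.146), with a variance trend (0.0702) and with the 8 arrays alone (0.0514). The SRE, TCACCCCAC on either strand, was found in 1 of 16 promoters of the list (6.25%) and in 0.555% of all 27025 genes with a promoter. It was that of Hmgcs1, shown on the forward strand at chr13:119690101-119690350 with the element, from -137, in capitals.
Hmgcs1: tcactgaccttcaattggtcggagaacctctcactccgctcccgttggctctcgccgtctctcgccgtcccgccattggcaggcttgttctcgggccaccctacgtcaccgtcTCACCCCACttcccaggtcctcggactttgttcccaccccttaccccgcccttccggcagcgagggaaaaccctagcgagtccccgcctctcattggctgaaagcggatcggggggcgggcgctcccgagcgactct

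Receptors and ligands changed in both directions. Among growth factor ligands and receptors 7 of 20 were lower and 2 higher (median -0.13). Pdgfrb, a receptor of platelet-derived growth factor, declined gradually from 0.67 at 0.5 h to 0.04 at 2.0 h and -0.66 at 4.0 h (-0.78 ± 0.13, adjusted p = 0.00107, or 0.0533 with 1 probe set per gene). Vegfc, a growth factor for lymphatic vessels, read -0.93, -0.88, -0.81 and -0.54, then -0.43, 0.01, 0.07 and -0.06, a gradual rise of 0.69 ± 0.10 (adjusted p = 0.000645). Igfbp5, a binding protein of insulin-like growth factors, was lower by 0.55 ± 0.12 (adjusted p = 0.00606, or 0.0527 after quantile normalization). Of the EGF receptor ligands and the receptor, 1 of 9 was higher and 1 lower (11.1% each, near the 7.74% and 14.4% of all genes, median 0.03). The higher one, Btc, moved by 0.16 ± 0.05, a call lost without any one of 6 arrays (adjusted p from 0.0555 to 0.101).

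In the Notch pathway, which drives the segmentation clock, 7 of 22 were lower, 2 higher and 13 not called (median -0.01). These were 31.8% lower and 9.09% higher, against 14.4% and 7.74% of all genes. Heyl, a bHLH repressor downstream of Notch, read 1.18, 0.93, 0.86 and 0.86, then 0.3, 0.17, -0.38 and -0.28 (-1.01 ± 0.13, adjusted p = 0.000273). The receptor Notch3 had its largest change between 0.5 h (1.48) and 1.0 h (0.59) and was at -0.13 to 0.01 in the middle window (-0.74 ± 0.19, adjusted p = 0.0119). Notch2 declined gradually from 0.51 to 0.3 and from 0.03 to -0.34 (-0.55 ± 0.08, adjusted p = 0.000765). In the Wnt list 2 of 17 were lower and 1 higher (11.8% and 5.88%, near the 14.4% and 7.74% of all genes, median 0.06). Dact1, an antagonist that acts on Dishevelled, was stepwise at 0.13, 0.59, 0.48 and 0.53, then -0.14, -0.45, -0.55 and -0.47 (-0.84 ± 0.12, adjusted p = 0.000465).

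Of the TGF-beta and BMP list, 3 of 16 were lower and 2 higher (18.8% and 12.5%, near the 14.4% and 7.74% of all genes, median -0.16). Id3, an inhibitor of myogenic and other bHLH factors, read 0.92, 1.8, 1.64 and 1.23, then 0.48, 0.21, -0.03 and -0.13 (-1.26 ± 0.17, adjusted p = 0.000345), with no overlap. Grem1, a secreted BMP antagonist, rose from -2.73 at 0.5 h to -0.25 at 2.0 h and lay between -0.33 and 0.15 later, so nearly all of its difference of 1.42 ± 0.38 arose inside the early window. Its adjusted p was 0.0164, and 0.0541 without the 1.0 h array. Skil, a repressor of SMAD signalling, was lower by 0.59 ± 0.17 (adjusted p = 0.0197), which did not hold without the 1.0, 1.5, 3.5 or 4.0 h array (0.0549 to 0.0572).

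The list of NF-kappaB regulators, chemokines and cytokines had 4 of 20 lower (20%, near the 14.4% of all genes) and 0 higher (median -0.23). Cxcl5 (-1.20 ± 0.35), Cxcl1 (-0.91 ± 0.27) and Ccl7 (-0.52 ± 0.16), chemokines that attract leukocytes, were called, and each lost the call without any one of 3 or 4 arrays (adjusted p from 0.0504 to 0.0753). Cxcl5 and Cxcl1 peaked at 1.98 and 2.12 at 1.0 h, and the 3 probe sets of Cxcl1 differed between windows by -2.07 to -0.09. Of 18 interferon genes, 5 were lower (27.8%, against 14.4% of all genes) and 0 higher (median -0.07). Ifit2, an interferon-induced inhibitor of translation, was at -0.24 to 0.14 in the early window and fell to -0.95 and -1.17 at 2.5 and 3.0 h (-0.73 ± 0.14, adjusted p = 0.00274), whereas the late window returned to a mean of 0.14.

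Among targets of SRF, actin dynamics and YAP, 5 of 24 were lower and 1 higher (20.8% and 4.17%, near the 14.4% and 7.74% of all genes, median -0.05). The higher gene was Tagln, an actin-binding protein of smooth muscle, which climbed gradually from -1.35 at 0.5 h to -0.44 at 2.0 h and from -0.19 to 0.27 in the middle window (0.91 ± 0.15, adjusted p = 0.00123). Fhl2, a LIM-domain cofactor, was lower by 0.39 ± 0.09 (adjusted p = 0.0105). Of 18 genes of hypoxia and glycolysis, 7 were lower and 2 higher (38.9% and 11.1%, against 14.4% and 7.74% of all genes, median -0.19). Bnip3, a mitochondrial factor of autophagy, declined gradually by 0.59 ± 0.11 (adjusted p = 0.00174). Of 14 heat shock chaperones, 6 were lower and 1 higher (42.9% and 7.14%, against 14.4% and 7.74% of all genes, median -0.10). The inducible HSP70 gene Hspa1b was stepwise, at 0.24, 0.35, 0.4 and 0.31, then -0.13, -0.21, -0.32 and -0.32 (-0.57 ± 0.07, adjusted p = 0.00022); the array design may not separate it from its near-identical neighbour Hspa1a (-0.70 ± 0.14, adjusted p = 0.00359).

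Proteases of the matrix and their inhibitors included the largest rise of all. In the matrix list 10 of 28 were lower and 3 higher (35.7% and 10.7%, against 14.4% and 7.74% of all genes, median -0.05). Serpinb2, an inhibitor of plasminogen activators, read -5.6, -4.29, -2.16 and -1.59, then -1.06, -0.23, 0 and 0.21. It rose at each of the 7 intervals, gradually and without overlap, by 3.14 ± 0.63 (adjusted p = 0.00348), or 8.805-fold, and 16.8% of this fell at 2.0 to 2.5 h. Plau, the urokinase-type plasminogen activator that Serpinb2 inhibits, moved the other way and in a step. It read 0.96, 1.23, 1.49 and 1.46, then -0.08, 0.45, -0.4 and -0.39, so that the drop at 2.0 to 2.5 h was 110.7% of the difference of -1.40 ± 0.17 (adjusted p = 0.000232). Adamts5, an aggrecan-cleaving protease, had -1.05 ± 0.16 (adjusted p = 0.000631), with probe sets from -1.47 to 0.06.

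**Figure D5:**
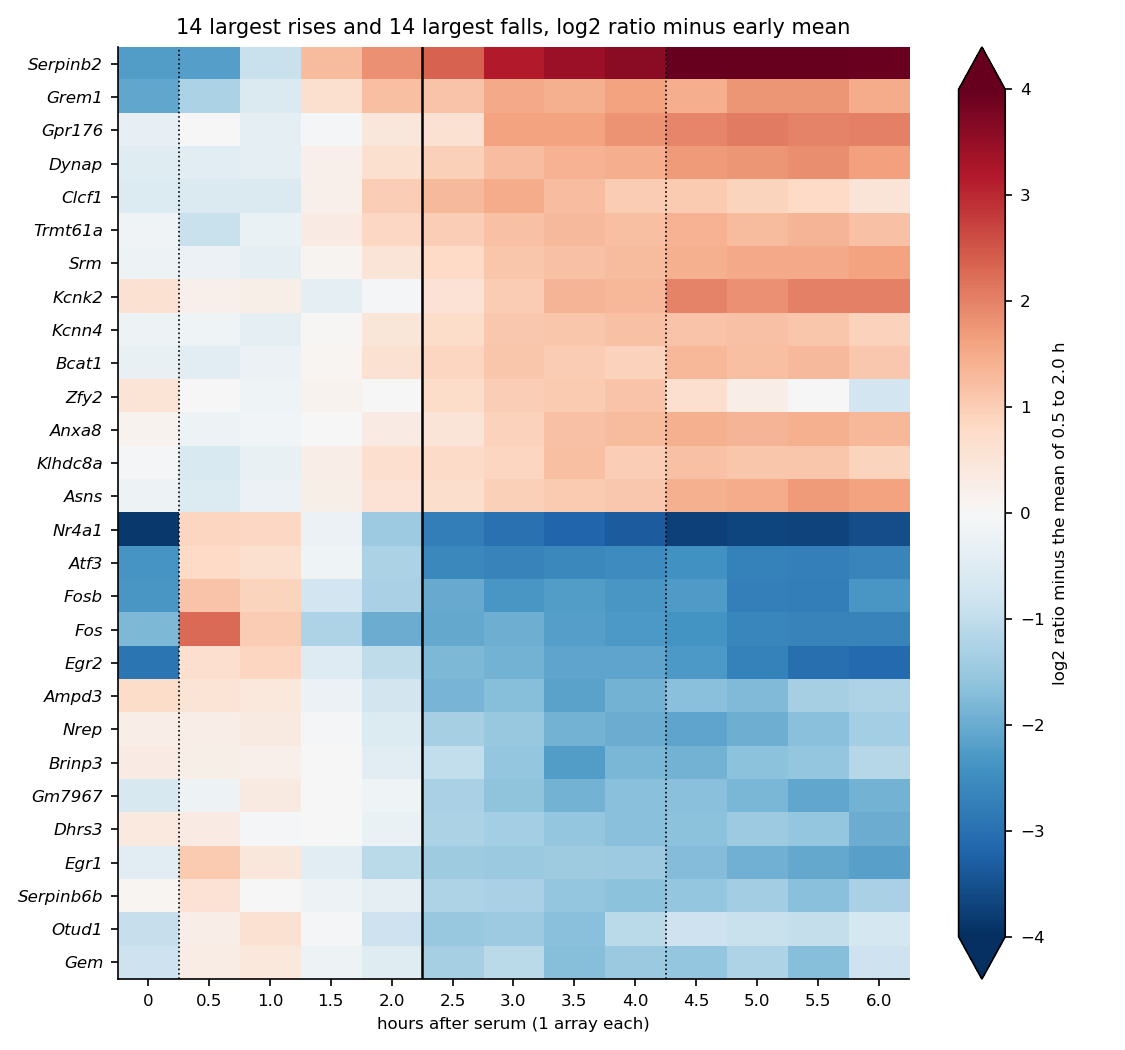
Log2 ratio minus the mean of 0.5 to 2.0 h (colour, drawn to 4 in each direction, with larger values in the end colours) on each array (columns, hours after serum) for the 14 largest rises and the 14 largest falls (rows) among called genes. The solid line is the border between 2.0 and 2.5 h, and dotted lines bound the 8 arrays. Most rises fade in over several columns. Zfy2 and Gm7967 are stepwise, and Dhrs3, Ampd3, Serpinb6b and Gem are among other rows with their largest change at the solid line.

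The other large rises were mostly gradual and had begun before 2.0 h. Of the 9 rises of 1 or more, 6 were gradual, 3 undecided and 0 stepwise, with a median of 23.05% of the difference at 2.0 to 2.5 h. Dynap (1.26 ± 0.19), the cytokine Clcf1 (1.26 ± 0.26), the tRNA methyltransferase subunit Trmt61a (1.17 ± 0.25) and the calcium-activated potassium channel Kcnn4 (1.02 ± 0.15) had 12.8% to 26.1% there. Srm, spermidine synthase, read -1.27, -1.38, -0.93 and -0.52, then -0.23, 0.09, 0.14 and 0.25 (1.09 ± 0.15, adjusted p = 0.000411). Kcnk2, a mechanically gated potassium channel, was the exception among these 9, at -1.71 to -1.08 in the early window and -0.75, -0.32, 0.05 and 0 in the middle window, with 58.7% at the boundary (1.07 ± 0.16, adjusted p = 0.000659). The orphan receptor Gpr176 stayed at -0.99 at 2.5 h and moved to -0.01 at 3.0 h (1.40 ± 0.21, adjusted p = 0.000657).

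Just below that size, Bcat1, which transaminates branched-chain amino acids (0.98 ± 0.16), the annexin Anxa8 (0.97 ± 0.14) and Klhdc8a (0.95 ± 0.20) rose with 10.9% to 25.6% of the difference at the boundary. Zfy2, a zinc finger gene of the Y chromosome, differed in shape. It read -0.23, -0.42, -0.12 and -0.27, then 0.48, 0.72, 0.78 and 0.87, a stepwise rise of 0.97 ± 0.21 (adjusted p = 0.00547), after 0.30 at 0 h. From 4.5 to 6.0 h it declined through 0.42, 0 and -0.28 to -1.02. Zfy2 was read by 1 probe set, and the ratio does not give its signal over background.

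Large falls spanned immediate-early genes and genes already high at 0 h. Of the 46 falls of 1 or more, 18 were gradual, 25 undecided, 1 neither and 2, Plau and Gm7967, stepwise. Ampd3, an AMP deaminase, read 1.79, 1.66, 1.02 and 0.52, then -0.62, -0.46, -0.9 and -0.63, after 1.99 at 0 h (-1.90 ± 0.22, adjusted p = 0.00022). Nrep (-1.68 ± 0.20), Brinp3 (-1.65 ± 0.23) and the protease inhibitor Serpinb6b (-1.43 ± 0.16) likewise stood at 1.29 to 1.55 at 0 h and were gradual by class. Of their differences, 46.6%, 33.9% and 60% fell at 2.0 to 2.5 h, in that order. Gm7967, a predicted gene, read 1.07, 1.65, 1.31 and 1.1, then 0, -0.34, -0.61 and -0.4 (-1.62 ± 0.14, adjusted p = 7.53e-05). The deubiquitinase Otud1 (-1.43 ± 0.22) and the GTP-binding protein Gem (-1.41 ± 0.21), near 0 before serum, peaked at 1.43 and 1.24 at 1.0 h.

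The genes with the smallest p for a jump beside a slope included small as well as large changes, and none passed adjustment by limma. Dhrs3, which reduces retinaldehyde and so limits retinoic acid, had the smallest (unadjusted p = 6.37e-05). It read 1.78, 1.41, 1.42 and 1.18, then 0.19, 0.08, -0.1 and -0.23, that is, a drop at the boundary on top of a decline in both windows (-1.46 ± 0.13 between windows, adjusted p = 7.53e-05). Wdr6, a WD-repeat protein, was level on both sides at 0.34, 0.28, 0.21 and 0.26, then -0.33, -0.33, -0.38 and -0.39 (-0.63 ± 0.07, adjusted p = 0.000153). Zbtb1, a zinc finger factor, read 0, 0.27, 0.2 and 0.14, then -0.41, -0.33, -0.33 and -0.23 (-0.48 ± 0.06, adjusted p = 0.000305). Wdr6 and Zbtb1 were stepwise, with no overlap.

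Upward, Terb2, a protein of meiotic telomeres, read -0.19, -0.33, -0.23 and -0.17, then 0.38, 0.37, 0.43 and 0.29 (0.60 ± 0.05, adjusted p = 7.53e-05). Gngt1, a G protein subunit of rod photoreceptors, was at -0.18 to -0.09 and then 0.33 to 0.35 (0.48 ± 0.09, adjusted p = 0.00189), with 4 probe sets from 0.11 to 1.09 and an adjusted p of 0.286 with 1 probe set per gene. Both were stepwise. From 4.5 to 6.0 h Terb2 lay between 0 and 0.11, against -0.27 at 0 h, and Gngt1 went from 0.25 to -0.31. Msc, musculin, a bHLH repressor of myogenic factors, read -0.26, -0.31, -0.42 and -0.31, then 0.12, 0.16, 0 and 0.04 (0.40 ± 0.06, adjusted p = 0.000381). Ropn1 and Gm3740 were called at 0.28 ± 0.07 and 0.25 ± 0.08, Gm3740 not without any one of 4 arrays (adjusted p from 0.0582 to 0.0735). The ratios do not give the signal of these genes over background.

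For 4 of these 12 genes the values of the windows overlapped. The potassium channel Kcnh8 declined from 0.23 to -0.21 before a step to 0.26, and Myh8, a developmental myosin, climbed from -0.51 to 0.22 before a step to -0.5. Kcnh8 (adjusted p = 0.292), Myh8 (0.444) and the mitochondrial carrier Slc25a16 (0.0689) were not called between windows. The chemokine Cxcl13 was called at -0.23 ± 0.07 (adjusted p = 0.0401) and lost the call without any one of 6 arrays (0.0673 to 0.104) and after centring (0.0523).

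Of 18 myoblast and myogenic factors, 3 were lower and 1, Msc, higher (16.7% and 5.56%, near the 14.4% and 7.74% of all genes, median -0.11). Myf5, a myogenic bHLH factor of proliferating myoblasts, read 0.34, 0.28, -0.19 and 0, then -0.27, -0.38, -0.79 and -0.52, a gradual fall (-0.60 ± 0.13, adjusted p = 0.00421). Mef2a was lower by 0.45 ± 0.11 (adjusted p = 0.0119), with 6 probe sets from -0.85 to 0.03, and Myod1 was at 0.14 (adjusted p = 0.341). Of 26 genes of differentiated muscle, 3 were lower (11.5%, against 14.4% of all genes) and 0 higher (median 0.07). The giant sarcomere proteins nebulin, Neb (-0.62 ± 0.12), and titin, Ttn (-0.38 ± 0.06), were among them, Neb with its lowest value, -0.75, at 3.0 h and Ttn as a step.

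Markers of cell types absent from the labels were also read, on relative values only. Of 16 blood and endothelial markers, 1 was higher (6.25%, near the 7.74% of all genes) and 0 lower (median 0.05). The list median was -0.028 to 0 on the early arrays and 0.008 to 0.041 on the middle arrays. The called gene, Fcer1g (0.22 ± 0.07, adjusted p = 0.0278), lost the call without any one of 3 arrays (0.0558 to 0.091). Of 15 adipocyte, osteoblast and fibroblast markers, 4 were lower and 1 higher (26.7% and 6.67%, against 14.4% and 7.74% of all genes, median 0.01). The list median was -0.021 to 0.024 early and -0.072 to -0.029 later. The called markers included Lpl, lipoprotein lipase (-0.43 ± 0.07, adjusted p = 0.00102), and Fap, a fibroblast protease (-0.38 ± 0.07, adjusted p = 0.00304), lower, and the phosphatase Alpl (0.39 ± 0.06, adjusted p = 0.000958), higher. The part of these markers in the other results was not tested.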

How the data were processed

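Total RNA from C2C12 cells was labelled with biotin and hybridised to 1 array per time point, per the labels' protocols. The deposited values are linear ratios. RMA was used by the authors, per the submitters' processing notes, with no version, and no source here says how the ratios were formed. Because the ratio removes the signal level, no filter on dim probe sets could be set, and the number of arrays limits the precision.

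From the deposited ratio, log2 values were computed for 45101 probe sets. No test included the 64 array controls. Of the 45037 others, 34945 had 1 gene symbol in the platform annotation, 932 several and 9160 none, which gave 18193 genes, 9010 of them with several probe sets. Among 2241 called genes with several probe sets, these differed in sign in 447. The reference gene table held the gene IDs of 34741 probe sets and altered 0 symbols.

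Window means were fitted over all 13 arrays (0 h, early, middle, late) in R 4.3.3 by limma 3.58.1, using lmFit and eBayes with two-sided p-values and Benjamini-Hochberg adjustment over all genes. The jump, slope and straight-line fits used the 8 arrays of both windows. Array controls were compared by an exact permutation test. The fits were tested on simulated data. Figures were drawn with matplotlib 3.10.9 and motifs searched with pandas 2.3.3 and numpy 2.4.6 under Python 3.11.15. Promoters, from the RefSeq table of build GRCm38.p6, were searched in the 250 bases before each start.

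Named genes were the 14 largest rises and 14 largest falls among called genes, the 6 rises and 6 falls with the smallest p of the jump, and up to 3 called members of each of 29 lists by size of change, or 2 where none was called. Genes named outside this rule were chosen after their values were seen. The windows, members and lists were chosen with earlier results of these data known. Alternatives were quantile normalization, centring on the array median, a robust prior with a variance trend, the 8 arrays alone, 1 probe set per gene, the arrays nearest the boundary, a minimum log2 change of 1, each array left out in turn, a slope of its own in each window and another ratio for the shape classes. Leaving out probe sets under a ratio of 1 on all 13 arrays, and recounting lists and shapes, those of the straight-line selection included, under these settings, were added after seeing the data.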

Additional observations from a re-analysis of the deposited data

Results flagged for a closer look

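In each window of each of the 113 named genes, the highest and lowest array were set against the others, which gave 226 groups of 4 arrays. The gap from an end value to its nearest neighbour, as a share of the group's range, passed Dixon's 95% critical value in 4 groups, where chance gives about 1 in 20. Gpr176 had its lowest middle value at 2.5 h, -0.99 against -0.01 for the next (share 0.837). Pmaip1 had its lowest middle value at 4.0 h, -0.69 against -0.43 (share 0.888). Slc25a16 had its lowest early value at 0.5 h, -0.26 against 0 (share 0.842), and limma called it where either the 0.5 h array (adjusted p = 0.0323) or the 4.0 h array (0.0186) was omitted. Rps3 had its lowest early value at 1.5 h, 0 against 0.05 (share 0.857).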

How the results depend on the processing

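No paired analysis was possible because the labels give 1 array per time point and no replicate numbers. In the contrast of 1.5 and 2.0 h with 2.5 and 3.0 h, 549 genes (100 higher, 449 lower) and 977 probe sets were called, 517 of the genes also called between the full windows. With a log2 change of at least 1 as well, 55 genes (9 higher, 46 lower) and 203 probe sets remained. Leaving out single arrays gave 2840 to 3943 genes, 877 (without 1.0 h) to 1525 higher and 1963 to 2461 lower. With a residual ratio of 0.8, 1123 called genes were stepwise, 1419 gradual and 474 undecided, and after quantile normalization 652 were stepwise against 443 gradual, the reverse of the order without it (563 against 785), where the cause was not tested. The jump and the slope beside it stayed at 0 calls by limma under every setting run. Sesn1 reversed to 0.145 where a single probe set stood for each gene. Among 110 called genes named here, 46 kept the call in all alternatives, 64 lost it in at least one and 22 without a single array; the contrast nearest the boundary, which has fewer arrays, ended 59 of these calls. Without replicates at any time point, change over time and variation between arrays within a window cannot be told apart, and the ratios give no signal over background.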
